A study of Mus musculus with 24 samples.

Results

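Mouse genes named for their place on the strand opposite a known gene, such as Lrrc75aos2 and Epb41l4aos, were followed through subcellular RNA fractions of pluripotent cells. Members were the genes of both FPKM tables whose symbol ends in os, or in os and 1 digit, without Fos, Mos and Icos. They were reported where the mean over the 12 libraries of either table was at least 0.5 FPKM (fragments per kilobase of transcript, scaled to the library's fragments), with the sense partner named by the stem. Of 29759 genes, 318 matched the letters, 3 of them Fos, Mos and Icos. Another 19, such as Sos1, Pros1, Uros, Selenos and Nanos1, matched by letters only, with no gene of the stem name in the neighbourhood, and were left out. That left 296 opposite-strand names, of which 92 genes (91 symbols, since 2 genes are named Tmem147os) reached the threshold, 74 in nESC, 78 in EpiLC and 60 in both. The other 204 stayed below it, 25 of them at 0 in every library. Members were thus chosen by their mean FPKM, and their levels are given as a description with no test. Just inside the threshold lay Plekhd1os at 0.512 and Tbx3os1 at 0.520 FPKM, and just outside it Med9os at 0.480 and Dmrta2os at 0.474 (the higher of their 2 means).

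The cells were mouse embryonic stem cells of the established line E14, with no genetic change named in any group. Naive cells (nESC) were grown in N2B27 medium with LIF and with PD0325901 and CHIR99021, which inhibit MEK and GSK3. Epiblast-like cells (EpiLC), a model of the epiblast soon after implantation, were taken on day 3 of culture with 20 ng/ml activin A plus bFGF (12 ng/ml). From each state 3 libraries each were made from chromatin, nucleoplasm, cytoplasm and total (whole-cell) RNA, 24 libraries in 8 groups.

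An opposite-strand gene is read from the DNA strand that its partner does not use. Many such RNAs start close to the partner's promoter and run away from it (head to head), others cross the partner's body, and most are long noncoding RNAs that are spliced less completely and held on chromatin more than messages. In embryonic stem cells divergent noncoding transcripts beside the promoters of active genes are common. Host genes of small nucleolar RNAs (snoRNAs) are a separate kind: the small RNA is cut out of the transcript, and the spliced remainder is usually without a protein product.

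Promoter sequence is shown for 3 noncoding members, ranked by the mean chromatin to cytoplasm log2 fold over the states (the lowest and the top pair). They were called in at least 1 state and drawn from the 23 noncoding members whose RefSeq window had a start within 10 bases of the GENCODE start and no annotated UTR. Windows run 5′ to 3′ on the gene's own strand, from RefSeq (GRCm38.p6), with bases from the transcription start onward in capitals.
Rab26os, chr17:24528001-24528300, plus strand: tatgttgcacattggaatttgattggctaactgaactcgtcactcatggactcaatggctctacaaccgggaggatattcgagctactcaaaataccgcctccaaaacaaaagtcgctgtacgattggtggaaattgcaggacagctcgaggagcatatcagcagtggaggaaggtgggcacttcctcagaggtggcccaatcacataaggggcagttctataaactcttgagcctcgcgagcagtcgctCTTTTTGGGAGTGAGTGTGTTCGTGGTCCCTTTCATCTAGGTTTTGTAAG
Rbm3os, chrX:8145177-8145476, plus strand: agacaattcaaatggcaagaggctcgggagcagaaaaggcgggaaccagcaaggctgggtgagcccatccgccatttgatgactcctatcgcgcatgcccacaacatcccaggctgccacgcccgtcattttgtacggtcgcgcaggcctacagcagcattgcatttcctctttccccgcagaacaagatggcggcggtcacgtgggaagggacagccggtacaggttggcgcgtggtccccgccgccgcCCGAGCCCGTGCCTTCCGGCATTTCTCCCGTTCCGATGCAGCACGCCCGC
Ptprtos, chr2:162390563-162390862, plus strand: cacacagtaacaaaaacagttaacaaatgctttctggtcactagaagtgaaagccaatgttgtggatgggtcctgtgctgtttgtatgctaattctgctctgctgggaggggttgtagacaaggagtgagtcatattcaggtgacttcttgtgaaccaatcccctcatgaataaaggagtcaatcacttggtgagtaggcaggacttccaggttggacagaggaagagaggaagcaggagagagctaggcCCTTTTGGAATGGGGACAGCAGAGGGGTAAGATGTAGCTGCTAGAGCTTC
The Rab26os window holds TATAAA on its own strand, starting 31 bases before the start site, and a CCAAT 53 bases before it, with 11 CG dinucleotides. Rbm3os, whose start lies 451 bases from that of Rbm3 (a cold-inducible RNA-binding protein), has 27 CG dinucleotides and CACGTG 51 bases before the start. Ptprtos has no CG at all and 2 CCAAT on its own strand. Searched on both strands, TATAAA occurs in 13.6% of 32851 windows of all genes, CCAAT in 37.4% and CACGTG in 7.15%, and the median window has 7 CG. Of 74 windows found for 53 members, 3 hold TATAAA, 21 CCAAT and 9 CACGTG. These matches describe letters and not bound sites. Inside the exons of Rab26os lies the C/D box snoRNA Snord60, of a class that guides methylation of ribosomal RNA. It is printed because its bases are among the annotated exonic bases of the host. Capitals mark the box C core TGATGA and box D CTGA.
Snord60, chr17:24528476-24528553, plus strand: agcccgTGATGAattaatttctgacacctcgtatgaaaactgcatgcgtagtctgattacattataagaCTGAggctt
Its 78 bases make up 15.7% of the exonic bases of Rab26os. Their share of its reads was not tested.

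All 92 members lie on the strand opposite their partner in GENCODE M21, 51 overlapping it, 32 head to head with start sites within 1 kb, and 9 near it without overlap. The label of noncoding RNA holds for 84 of them. The other 8 are annotated as protein coding: Crxos, Cebpzos, Slc7a6os, Zbtb8os, Wdr83os, Ccpg1os, Brd3os and Fancd2os. Among the 84 are 73 annotated as antisense, 6 as lincRNA, 4 as processed transcripts and Abhd11os as a transcribed unitary pseudogene. Exonic length ran from 430 to 6498 bases with a median of 1424. The partner is the gene left when os and any digit are removed, except for Ict1os (Mrpl58), Proscos (Plpbp) and Zbtb8os (Zbtb8b), where the stem is an older name. The 92 members have 85 partners.

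Steps between low FPKM values put 12.1 to 24.2 fragments behind 1 FPKM in 1 kb of transcript in the chromatin and cytoplasm libraries and 31.7 to 46.6 in nucleoplasm and total RNA, so values below 1 FPKM rest on few fragments. Of the 5 naive markers examined, all had higher total RNA in nESC, with Nanog at 277 ± 2.92 FPKM (SD, n = 3) against 14.2 ± 0.688 in EpiLC, and the 4 formative markers were higher in EpiLC, with Fgf5 at 0.0553 ± 0.0178 and 54.2 ± 1.45. Defining markers of primitive endoderm (Gata4, Gata6, Sox17, Pdgfra) had means between 0.014 and 0.794 FPKM in either state. Those of fibroblasts and trophectoderm lay between 0.0469 and 1.30, apart from Thy1 at 7.32 ± 0.616 in EpiLC. In bulk RNA, fewer cells of a type and less RNA per cell cannot be told apart. The EpiLC chromatin and cytoplasm libraries numbered 3 stood apart from their groups in earlier work on these data, and EpiLC counts are also given without them.

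The most abundant members were a mixture of coding genes, host genes of small RNAs and the antisense RNA Appbp2os. Epb41l4aos, a lincRNA of 430 exonic bases on chromosome 18 (33794892 to 33795986) that contains the annotated small RNA Gm23639, had the highest mean in EpiLC and was exceeded in nESC by Crxos alone. In nESC it measured 156, 154 and 161 FPKM in total RNA, 31.7, 31.0 and 38.5 in chromatin, 165, 156 and 136 in nucleoplasm and 385, 339 and 346 in cytoplasm. In EpiLC it measured 193, 189 and 195 in total RNA, 49.1, 67.5 and 75.7 in chromatin, 97.5, 93.6 and 96.7 in nucleoplasm and 272, 265 and 272 in cytoplasm. Chromatin was lowest and cytoplasm highest in both states, with no overlap of the groups.

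Rab26os, the host of Snord60, followed it in EpiLC. Its nESC values were 213, 267 and 271 FPKM in total RNA, 84.6, 67.1 and 68.7 in chromatin, 105, 81.1 and 81.9 in nucleoplasm and 144, 131 and 146 in cytoplasm. Its EpiLC values were 110, 134 and 110 in total RNA, 66.9, 93.4 and 123 in chromatin, 60.5, 72.9 and 47.8 in nucleoplasm and 264, 250 and 216 in cytoplasm. Cytoplasm exceeded chromatin in each state without overlap, while chromatin and nucleoplasm overlapped in both.

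Crxos encodes a homeodomain protein known from preimplantation embryos and embryonic stem cells, and it had the largest gap between the states. In nESC it measured 294, 299 and 289 FPKM in total RNA, 42.2, 38.9 and 29.8 in chromatin, 199, 177 and 197 in nucleoplasm and 300, 286 and 276 in cytoplasm. In EpiLC it was at 2.78, 3.02 and 3.01 in total RNA, 0.189, 0.408 and 0.707 in chromatin, 2.87, 1.75 and 1.59 in nucleoplasm and 3.49, 5.68 and 2.46 in cytoplasm. Its partner Crx, a photoreceptor transcription factor, had a mean of 0.0158 FPKM over the nESC libraries.

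Cebpzos, a coding gene, had 85.1, 89.3 and 87.5 FPKM in nESC total RNA, 18.0, 17.9 and 14.2 in chromatin, 75.1, 71.7 and 79.4 in nucleoplasm and 182, 153 and 158 in cytoplasm. Its EpiLC values were 34.2, 33.9 and 32.9 in total RNA, 6.65, 7.88 and 11.3 in chromatin, 27.2, 22.9 and 23.3 in nucleoplasm and 71.8, 72.7 and 56.5 in cytoplasm. It kept the order chromatin, nucleoplasm, cytoplasm in both states.

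Slc7a6os, the mammalian counterpart of a factor that carries RNA polymerase II into the nucleus, went the other way. In nESC it had 34.5, 34.7 and 35.5 FPKM in total RNA, 55.4, 55.5 and 58.7 in chromatin, 33.9, 36.2 and 35.0 in nucleoplasm and 25.1, 26.3 and 28.4 in cytoplasm. In EpiLC it had 28.3, 29.4 and 30.1 in total RNA, 39.6, 44.9 and 41 in chromatin, 32.7, 31.0 and 27.2 in nucleoplasm and 35.5, 39.1 and 33.1 in cytoplasm. Chromatin was the highest fraction in both states, by a narrow margin over cytoplasm in EpiLC.

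Zbtb8os encodes archease, a cofactor of the tRNA ligase. It measured 39.9, 40.4 and 35.6 FPKM in nESC total RNA, 6.22, 6.04 and 5.52 in chromatin, 27.6, 31.8 and 32.0 in nucleoplasm and 43.0, 39.3 and 38.3 in cytoplasm. In EpiLC the values were 38.7, 36.9 and 40.1, then 6.81, 8.80 and 9.40, then 37.8, 37.8 and 37.7, and 50.6, 55.1 and 45.2 FPKM in the same order of fractions. Chromatin stood far below the other kinds of library.

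Wdr83os encodes a small endoplasmic reticulum protein that helps to insert membrane proteins. It measured 14.8, 14.8 and 16.2 FPKM in nESC total RNA, 8, 7.77 and 8.57 in chromatin, 14.9, 15.2 and 11.5 in nucleoplasm and 32.4, 33.8 and 34.7 in cytoplasm. In EpiLC the values were 17.0, 13.5 and 13.1, then 5.86, 7.41 and 7.85, then 15.3, 15.3 and 13.6, and 34.7, 33.4 and 26.9 FPKM in the same order. Its chromatin and cytoplasm groups did not overlap.

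Appbp2os, an antisense RNA head to head with Appbp2, gave like FPKM values in all kinds of library. It measured 25.6, 18.6 and 23.4 FPKM in nESC total RNA, 24.5, 25.2 and 28.4 in chromatin, 21.9, 21.7 and 20.6 in nucleoplasm and 20.6, 27.9 and 24.6 in cytoplasm. In EpiLC the values were 23.4, 24.2 and 21, then 14.9, 22.2 and 16.0, then 21.9, 19.4 and 20.6, and 25.9, 19.4 and 22.1 FPKM. Chromatin and cytoplasm overlapped in both states.

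Lrrc75aos2, an antisense RNA of 1227 exonic bases inside Lrrc75a (chromosome 11, 62605766 to 62607748), had its highest FPKM in chromatin. In nESC it measured 47.3, 38.0 and 30.7 FPKM in chromatin, 0.078, 0.122 and 0.390 in cytoplasm, 0.620, 0.440 and 0.531 in nucleoplasm and 1.72, 0.869 and 1.42 in total RNA. In EpiLC it measured 42.3, 43.2 and 42.7 in chromatin, 0.961, 1.24 and 1.38 in cytoplasm, 1.43, 1.63 and 1.51 in nucleoplasm and 4.92, 5.75 and 5.74 in total RNA. All 6 chromatin libraries lay far above every other library. The cytoplasm values of nESC rest on about 10.5 fragments over 3 libraries.

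**Figure D1:**
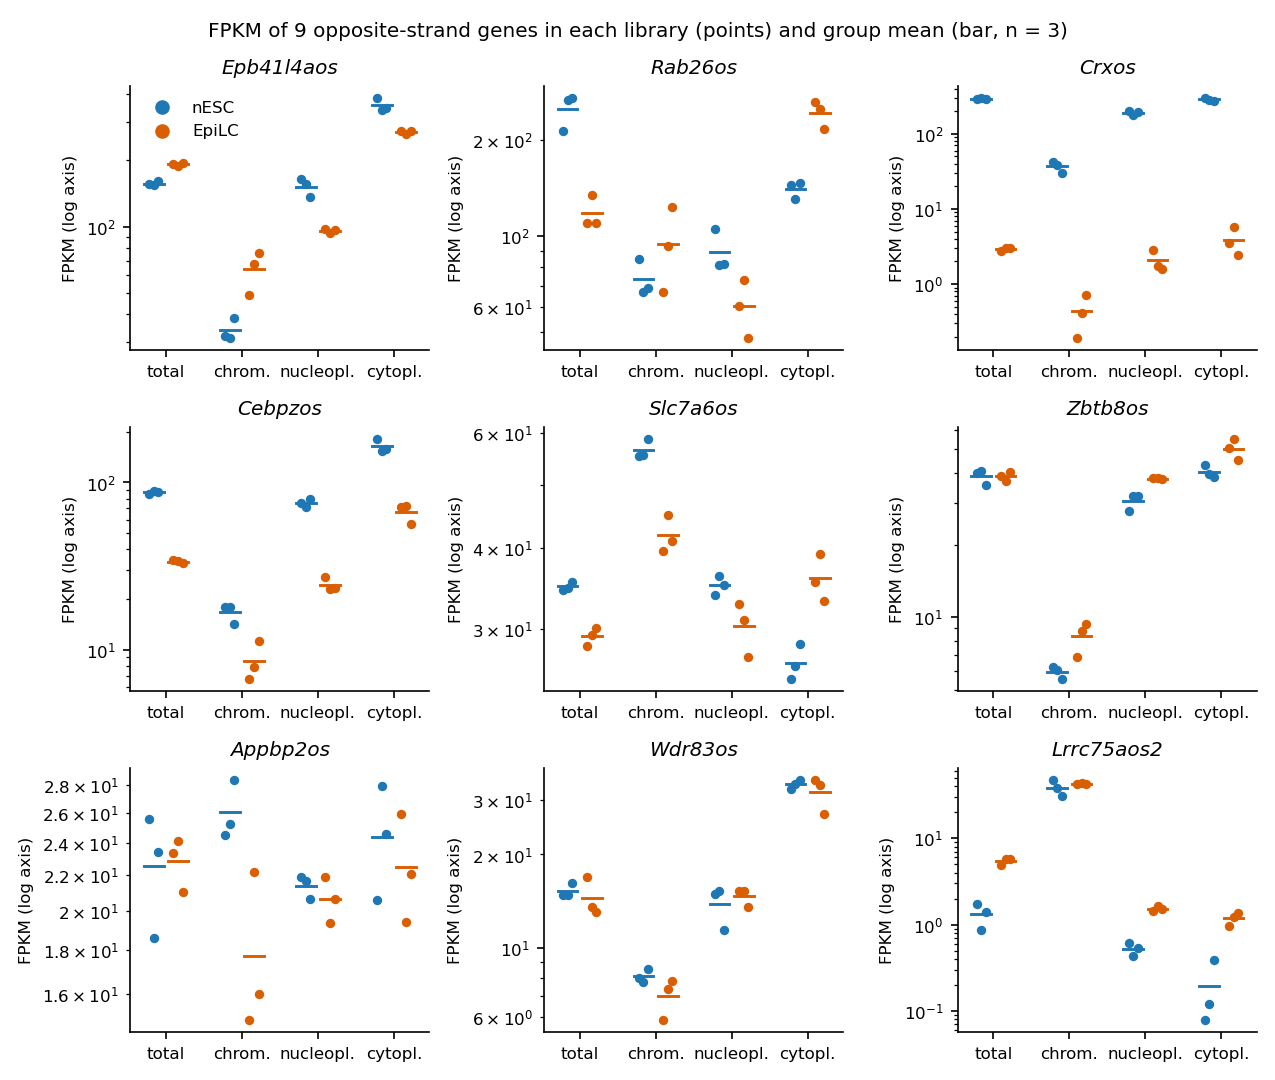
FPKM (log axes, each panel with its own range) of 9 opposite-strand genes in total RNA, chromatin, nucleoplasm and cytoplasm of nESC (blue) and EpiLC (orange). Points are the 3 libraries of a group and bars their mean. Lrrc75aos2 is highest in chromatin, Epb41l4aos, Crxos, Cebpzos, Zbtb8os and Wdr83os are lowest there, and Crxos separates the states.

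Chromatin was compared with cytoplasm within each state, which describes where FPKM was higher and does not measure retention or export. In nESC 41 of the 74 members tested were higher in chromatin, where 32.9% of all 14022 genes were, and 14 were lower, where 27.6% were. In EpiLC 45 of 78 were higher, against 30.5% of 14387 genes, and 10 were lower, against 25.9%. Fits used limma on log2(FPKM + 0.5) and a gene was called where it changed 2-fold or more with an adjusted p (Benjamini-Hochberg, all genes) below 0.05. Median log2 folds of the members were 1.24 and 1.17, beside 0.13 and 0.11 over all genes tested. Without both EpiLC libraries numbered 3 the counts were 46 higher and 10 lower. Whether replicates came from separate cultures is not in the labels. The p-values therefore speak only of the spread among these samples, and that spread may be technical.

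The threshold includes the fraction libraries, so a member could enter through the fraction where it is high. With members taken instead at 0.5 FPKM in total RNA, which enters none of these contrasts, 29 of 56 were higher and 13 lower in nESC chromatin and 39 of 68 higher and 10 lower in EpiLC chromatin. Among all genes taken so, 30.9% were higher and 29.2% lower in nESC, and 29.4% and 26.8% in EpiLC. With each library scaled to one FPKM sum, the all-gene median went from 0.13 to 1.85 in nESC and from 0.11 to 1.71 in EpiLC. Members were then 59 higher and 6 lower in nESC and 67 higher and 2 lower in EpiLC. On that scale 9481 of 14022 genes were higher and 773 lower in nESC, and 9589 of 14387 and 667 in EpiLC. Calls used the deposited scale, so the shares and medians of all genes are given beside those of the members. With each library centred on its median, members were 36 higher and 16 lower in nESC and 35 and 10 in EpiLC. Among all genes 3750 of 14022 were then higher and 4794 lower in nESC, and 3568 of 14387 and 4606 in EpiLC.

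Coding and noncoding members are given apart, and no difference between them was tested. Of the 8 coding members 5 were lower in chromatin in each state and 1 was higher, with medians of -1.99 in nESC and -1.65 in EpiLC. Under one-sum scaling 1 of the 5, Cebpzos, was still called lower in each state, and Ccpg1os stood at -0.25 in nESC and 0.40 in EpiLC. Of the noncoding members 40 of 66 were higher and 9 lower in nESC (median 1.46), and 44 of 70 were higher and 5 lower in EpiLC (median 1.36). Other genes annotated as antisense gave 320 of 503 higher and 52 lower in nESC (median 1.57) and 347 of 543 higher and 28 lower in EpiLC (median 1.57); no difference between these and the noncoding members was tested. The 85 sense partners gave 27 of 76 tested higher and 16 lower in nESC (median 0.43) and 20 of 78 higher and 15 lower in EpiLC (median 0.14).

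**Figure D2:**
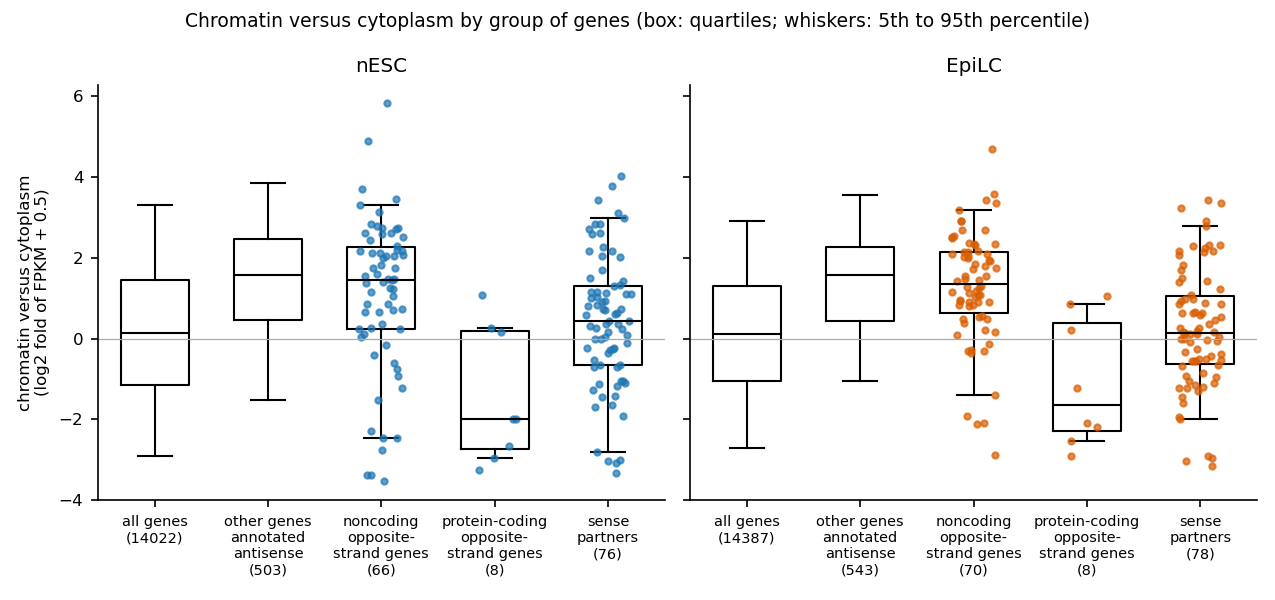
Chromatin versus cytoplasm log2 folds of FPKM + 0.5 (y axis) in nESC and EpiLC for all genes, other genes annotated as antisense, noncoding and protein-coding opposite-strand genes and their sense partners, with the number of genes in brackets. Boxes give quartiles, whiskers the 5th to 95th percentile and points single genes of the small groups; noncoding opposite-strand genes have medians of 1.46 and 1.36 and coding ones -1.99 and -1.65.

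Across the 60 members tested in both states, 28 were higher in chromatin in both and 9 lower in both. None was called in opposite directions. How often all genes were called alike in both states was not counted, so these numbers only describe the members. The 28 were Alkbh3os1, B9d1os, Ccdc142os, Dbhos, Dhrs13os, Fam120aos, H3f3aos, Ict1os, Ino80dos, Kdm6bos, Lrrc75aos2, Man2c1os, Mypopos, N4bp2os, Phtf1os, Ppp1r18os, Prox2os, Ptprtos, Rapgef4os1, Rbm3os, Rsf1os2, Sap30bpos, Tnk2os, Ube4bos1, Ube4bos3, Uckl1os, Zbtb11os1 and Zfhx2os. All 28 are noncoding. The 9 were Abhd11os, Ccpg1os, Cebpzos, Crxos, Epb41l4aos, Sp3os, Wdr83os, Zbtb8os and the Tmem147os gene of 456 exonic bases, of which 5 are coding. Another 9 were called in nESC and not in EpiLC: Notumos, Nphs1os, Rab10os, Slc7a6os, Tomm6os and Zfp335os as higher and Atad3aos, Map2k3os and Srrm4os as lower. Called in EpiLC and not in nESC were Brip1os, Fancd2os and the Tmem147os gene of 1416 exonic bases as higher and Rab26os as lower. Appbp2os, Arhgap27os2, Brd3os, Cdk19os, Frs3os, Kank4os, Lppos, Lrp8os2, Stamos and Usp46os2 were called in neither.

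Of the 14 members tested in nESC alone 7 were higher and 2 lower, and of the 18 tested in EpiLC alone 14 were higher and 0 lower. The mean that let them in includes the fractions compared. The share among all genes tested in 1 state alone was not counted, so these numbers are a description only. In nESC Faddos, Gssos1, Gssos2, Mkln1os, Myadml2os, Prkag2os2 and Proscos were higher in chromatin, Dnah2os and Slc36a3os lower, and Adap2os, Tbx3os1, Tbx3os2, Tmem51os1 and Vax2os were not called. Gssos1, at 1.06, was at 0.66 and not called without nESC cytoplasm replicate 3. In EpiLC the higher ones were Anxa11os, Chn1os1, Chn1os3, Dnmt3bos, Dtnbos, Fbxl12os, Kcnmb4os2, Lrp8os1, Nr6a1os, Rab11fip4os1, Rptoros, Slain1os, Tbc1d22bos and Trp73os. Fbxl12os, at 1.13, was at 0.68 and not called without EpiLC cytoplasm replicate 2. Arhgap27os1, Junos, Pcsk2os1 and Plekhd1os were not called.

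The largest fold toward chromatin was that of Lrrc75aos2, at 5.82 (SE 0.22, adjusted p = 2.97e-11, limma) in nESC and 4.68 (SE 0.11, adjusted p = 6.42e-11) in EpiLC. Its partner Lrrc75a also rose in chromatin, at 4.02 and 3.43. Ptprtos, 3 exons antisense to the receptor tyrosine phosphatase gene Ptprt, had 4.88 (SE 0.25, adjusted p = 6.85e-10) and 3.36 (SE 0.28, adjusted p = 1.67e-07). Phtf1os stood at 3.71 and 3.42 and Rbm3os at 3.46 and 2.91. Ino80dos, antisense to the gene of a subunit of the INO80 chromatin remodeller, was at 3.13 in nESC and 3.59 in EpiLC.

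In the other direction lay Sp3os, antisense to the gene of the transcription factor SP3, the lowest in nESC. It measured 1.4, 1.80 and 1.04 FPKM in nESC chromatin and 25.6, 18.3 and 20.9 in cytoplasm. EpiLC chromatin held 0.801, 0.702 and 1.65 FPKM and cytoplasm 12.8, 10.8 and 8.64. The groups did not overlap, and the log2 fold was -3.53 (SE 0.17, adjusted p = 4.25e-10, limma) in nESC and -2.89 (SE 0.21, adjusted p = 4.72e-08) in EpiLC. Epb41l4aos had -3.39 (SE 0.09) and -2.09 (SE 0.13), and Abhd11os, antisense to a mitochondrial hydrolase gene, -3.37 and -1.92. Coding members were Cebpzos at -3.26 and -2.91, the lowest in EpiLC, Crxos at -2.96 and -2.20, Zbtb8os at -2.66 and -2.53 and Wdr83os at -1.99 and -2.09. Under one-sum scaling Sp3os and Cebpzos were still called lower in both states, while Epb41l4aos and Abhd11os were called lower in nESC and not in EpiLC (-0.26 and -0.19), and Crxos (-1 and -0.98), Zbtb8os and Wdr83os lost their calls in both. Rab26os had -0.94, short of 2-fold, in nESC and -1.40 in EpiLC, and the same scaling gave 1.03 and 0.44.

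Folds of member and partner were weakly related across pairs. Over 60 noncoding members with a tested partner in nESC the folds of the 2 had a Pearson's r of 0.15 and a Spearman's rho of 0.16, and over 67 in EpiLC 0.12 and 0.037. These describe genes that share the same libraries. The member's fold was above that of its partner in 36 of 60 and 48 of 67 pairs. Sp3os and Sp3 lay on opposite sides. Sp3 measured 44.6, 50.6 and 62.1 FPKM in nESC chromatin and 8.56, 12.2 and 11.1 in cytoplasm, where Sp3os was high. Its folds were 2.25 (SE 0.13) and 2.32 (SE 0.23).

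The log2 ratio of member to partner within a library (0.5 FPKM added to each) depends on library scaling only through the added value. For Sp3os over Sp3 it was -4.80 ± 0.481 (SD, n = 3) in nESC chromatin and 0.99 ± 0.489 in cytoplasm, and -5.00 ± 0.788 and 0.20 ± 0.753 in EpiLC. For Cebpzos over Cebpz, the gene of a nucleolar ribosome assembly factor, it was -0.54 ± 0.453 and 3.46 ± 0.448 in nESC and -1.48 ± 0.553 and 2.51 ± 0.662 in EpiLC. For Rab26os over the vesicle GTPase gene Rab26 it was 3.23 ± 0.427 and 6.18 ± 0.357 in nESC and 4.37 ± 0.131 and 6.35 ± 0.173 in EpiLC. The cytoplasm ratio was the higher in these 3 pairs, and the chromatin ratio in Lrrc75aos2 over Lrrc75a, at -0.75 ± 0.380 and -2.54 ± 0.243 in nESC and -0.60 ± 0.119 and -1.85 ± 0.176 in EpiLC. Each of these 8 comparisons had no overlap and an exact two-sided permutation p of 0.1, the smallest that 3 against 3 libraries allow. Such separation was the usual outcome among pairs where both genes reached 0.5 FPKM. In nESC 32 of 67 pairs had a higher ratio in chromatin and 25 a lower one without overlap, and in EpiLC 45 and 19 of 74. Other pairs of genes were not counted in this way, so these numbers only describe the members and their partners. Over the 67 nESC pairs where both genes reached 0.5 FPKM the median difference of the ratio, chromatin minus cytoplasm, was 0.69, or 0.42 without nESC chromatin replicate 1, and over 74 EpiLC pairs it was 0.94.

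**Figure D3:**
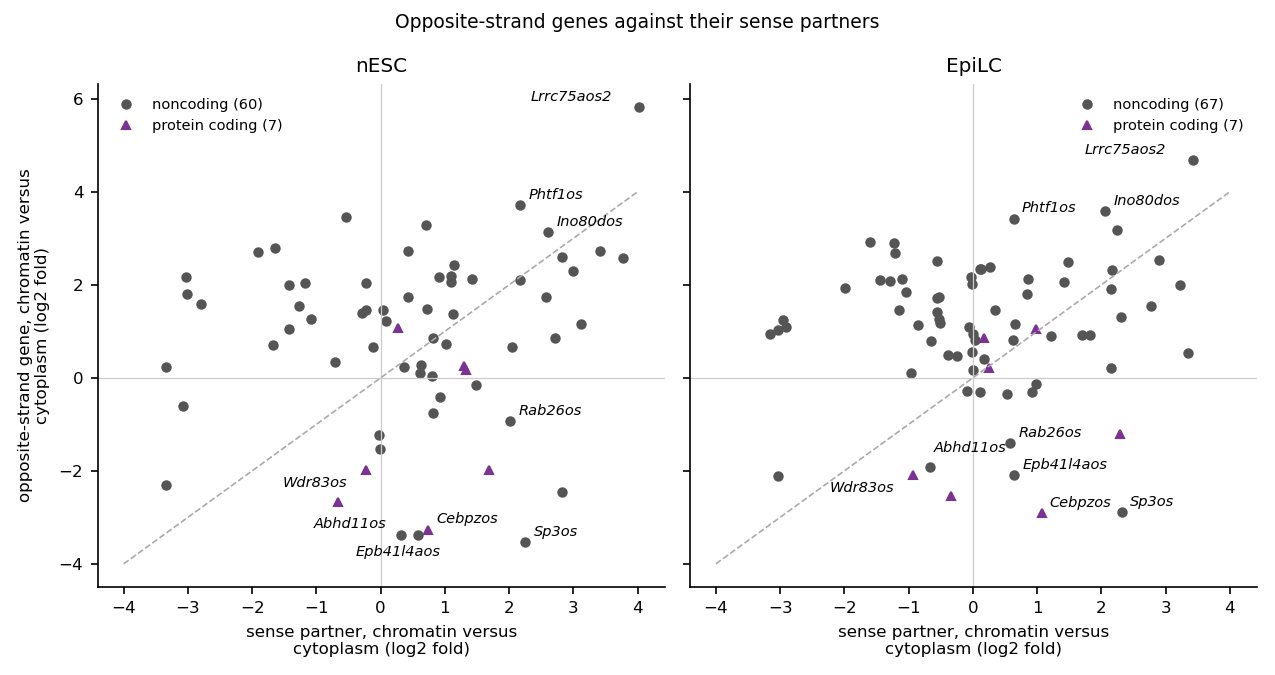
Chromatin versus cytoplasm log2 fold of FPKM + 0.5 of opposite-strand genes (y axis) against that of their sense partners (x axis) in nESC and EpiLC, 1 point per pair, with coding members as triangles and equality as the dashed line. Points spread over every quadrant, with Lrrc75aos2 at the upper right and Sp3os at the lower right.

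Reads of the 2 strands can be told apart only where counting uses strand. The library kit keeps strand, but the setting used in counting is not given in the sources used here. Exons of 67 members share bases with exons of the opposite strand, 61 with those of the partner itself. Noncoding members with no such base gave 6 of 15 higher and 4 lower in nESC chromatin (median -0.16) and 11 of 19 higher and 3 lower in EpiLC (median 1.54). Those with a share under 25% gave 14 of 26 higher and 4 lower in nESC (median 1.39) and 18 of 28 higher and 2 lower in EpiLC (median 1.21). Members with 25% or more of their exonic bases there gave 20 of 25 higher and 1 lower in nESC (median 1.75) and 15 of 23 higher and 0 lower in EpiLC (median 1.56). The part of shared bases in these folds was not tested. Sp3os, with 12.2% of its exonic bases in exons of Sp3, lay opposite to Sp3, and Epb41l4aos and Rab26os have none. Lrrc75aos2 lies inside Lrrc75a and went the same way as that partner in both states. Another 8 members share exonic bases with genes of their own strand, among them Gssos1 with Gssos2, the Tmem147os genes with each other and Zfhx2os with Gm20687, and their single values are uncertain.

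Against nucleoplasm, 39 of 74 members were higher in nESC chromatin (19.4% of all genes) and 9 lower (15.9%), and 54 of 78 were higher in EpiLC chromatin (18.7%) and 4 lower (14.9%). The medians were 1.08 and 1.52. Without both EpiLC libraries numbered 3 the EpiLC counts were 55 and 6. Nucleoplasm against cytoplasm gave 4 of 74 higher in nESC (18.9% of all genes) and 11 lower (17.9%), and 3 of 78 higher in EpiLC (18.3%) and 13 lower (17.5%). Without the same libraries EpiLC had 3 higher and 14 lower. Higher in both states were Phtf1os at 2.61 in nESC and 3.16 in EpiLC, Rapgef4os1 at 1.56 and 1.35 and Brip1os at 1.17 and 1.03. Rab26os was at -0.66, not called, and -2.02, Sp3os at -1.76 and -2.09 and Epb41l4aos at -1.23 and -1.49. Scaled to one sum, nucleoplasm against cytoplasm gave 18 members higher and 0 lower in nESC and 6 and 1 in EpiLC. On that scale 6415 of 14022 genes were higher and 135 lower in nESC, and 5298 of 14387 and 223 in EpiLC. Counts of members and of all genes both changed with the scaling.

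The chromatin to cytoplasm fold was set against that of the other state by an interaction term fitted to 12 libraries after centring each at its median. Of 92 members 13 had a higher fold in EpiLC, where 6.79% of 15302 genes did, and 6 a lower one, where 5.25% did. Without both EpiLC libraries numbered 3 the counts were 13 and 7. All 19 are noncoding. In 11 of them the chromatin and cytoplasm libraries of each state held about 50 fragments or more, and in 8 one state held fewer, which leaves the fold of that state near the level of the pseudocount.

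Srrm4os, antisense to the gene of the neuronal splicing factor SRRM4, differed most, by 3.45 (SE 0.31, adjusted p = 1.57e-05, limma). In nESC it measured 6.04, 5.91 and 7.24 FPKM in chromatin and 40.8, 33.4 and 38.4 in cytoplasm. In EpiLC it had 1.77, 1.65 and 1.43 in chromatin and 0.420, 1.16 and 0.421 in cytoplasm. Total RNA and nucleoplasm lay between 7.09 and 15.3 in nESC and between 0.240 and 0.656 in EpiLC. Cytoplasm was the highest fraction in nESC and chromatin in EpiLC, at a level far lower throughout. Srrm4 itself had 6.10, 5.93 and 4.83 FPKM in nESC chromatin and 0.381, 0.328 and 0.369 in cytoplasm.

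Abhd11os and Epb41l4aos were low in chromatin in both states and less so in EpiLC. Abhd11os measured 2.11, 2.48 and 1.31 FPKM in nESC chromatin and 24.2, 22.1 and 27.2 in cytoplasm. In EpiLC it had 2.97, 4.01 and 6.76 in chromatin and 19.6, 19.4 and 14.8 in cytoplasm, with total RNA and nucleoplasm between 4.29 and 12.5 over both states. The difference was 1.52 (SE 0.37, adjusted p = 0.0111), and for Epb41l4aos, whose values stand above, 1.37 (SE 0.22, adjusted p = 0.000987). Cytoplasm stayed above chromatin in every library of both genes.

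Map2k3os, head to head with the kinase gene Map2k3, measured 1.74, 2.71 and 3.72 FPKM in nESC chromatin and 6.23, 7.14 and 6.96 in cytoplasm. In EpiLC it had 5.12, 7.71 and 4.46 in chromatin and 4.80, 4.73 and 6.27 in cytoplasm, and 1.82 to 4.58 in the other libraries of both states. The fractions were apart in nESC and overlapped in EpiLC, a difference of 1.39 (SE 0.32, adjusted p = 0.00873). Atad3aos, head to head with a mitochondrial membrane ATPase gene, had 0.922, 0.879 and 0.209 in nESC chromatin and 2.83, 1.73 and 3.96 in cytoplasm. In EpiLC it had 1.04, 1.14 and 1.30 and 0.613, 0.505 and 0.275, and 0.0778 to 3.41 elsewhere. The order of the fractions turned over, with a difference of 2.39 (SE 0.42, adjusted p = 0.00166).

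Dtnbos, Slain1os and Trp73os were near the pseudocount in nESC. Dtnbos, antisense to the dystrobrevin beta gene, had 0.598, 1.23 and 1.18 FPKM in nESC chromatin and 0.109, 0.0424 and 0.0451 in cytoplasm, then 3.18, 3.68 and 3.23 and 0.0705, 0.119 and 0.106 in EpiLC. Slain1os had 0.338, 0.608 and 0.406 and 0, 0 and 0.0225 in nESC, then 3.60, 1.96 and 1.55 and 0.0702, 0.0885 and 0.176 in EpiLC. Both were above cytoplasm in chromatin in each state, and the fitted differences were 1.38 and 1.35. The fit for Slain1os rests on the pseudocount: about 70.4 chromatin and 1.0 cytoplasm fragments in nESC and 412.8 and 20.4 in EpiLC give a ratio that is the larger in nESC, so no direction is read from it. Trp73os, antisense to the p53 family gene Trp73, had 0.776, 0.476 and 0.129 in nESC chromatin and 0.396, 0.278 and 0.329 in cytoplasm, then 2.86, 3.44 and 3.65 and 1.05, 1.10 and 1.39 in EpiLC. Its fractions overlapped in nESC and not in EpiLC, a difference of 1.10 (adjusted p = 0.0221). The 3 stayed at 0.0418 to 1.26 FPKM in total RNA and nucleoplasm of both states. The call on Trp73os was lost without nESC chromatin replicate 3 (0.83), without nESC cytoplasm replicate 1 (1.04) and without EpiLC cytoplasm replicate 1 (1.07).

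Lrrc75aos2, Ptprtos and Rab10os had a lower fold in EpiLC. That of Lrrc75aos2 differed by -1.06 (SE 0.26, adjusted p = 0.0122), with chromatin at 30.7 to 47.3 FPKM in nESC and 42.3 to 43.2 in EpiLC and cytoplasm at 0.078 to 0.390 and 0.961 to 1.38. It fell short of 2-fold without nESC chromatin replicate 1 (-0.92), nESC cytoplasm replicate 1 (-0.96) or nESC cytoplasm replicate 2 (-0.98). Ptprtos measured 24.3, 28.6 and 22.2 FPKM in nESC chromatin and 0.975, 0.151 and 0.163 in cytoplasm, then 9.24, 8.59 and 4.17 and 0.505, 0.107 and 0.128 in EpiLC, with 0.263 to 2.69 in the other libraries. Chromatin was far above cytoplasm in both states. Its difference of -1.45 (adjusted p = 0.0462) lost its call in 10 of the 12 fits that left out 1 library.

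Rab10os, antisense to the gene of a vesicle GTPase, had 29.7, 32.7 and 21.4 FPKM in nESC chromatin and 5, 5.79 and 7.27 in cytoplasm, then 15.3, 18.7 and 14.7 and 10.7, 8.72 and 6.42 in EpiLC. Its total and nucleoplasm values ran from 5.47 to 9.25. Chromatin exceeded cytoplasm in both states, by less in EpiLC, with a difference of -1.15 (adjusted p = 0.0149), or -0.97 and no call without EpiLC cytoplasm replicate 1.

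The remaining 8 were at or near 0 in 1 state and passed the filter through the other. Their fold in the low state is held near 0 by the pseudocount, so their test is no evidence of a changed distribution. The values stand as a description. Cytoplasm or chromatin of at least 1 state held no fragment for Slc36a3os, Gssos2, Nr6a1os and Lrp8os1, so that no order of their measured ratios is read. Mkln1os, head to head with the muskelin gene, had 5.09, 8.04 and 4.12 FPKM in nESC chromatin and 0.190, 0 and 0.173 in cytoplasm, and at most 0.145 in any EpiLC library. Myadml2os had 4.72, 2.54 and 2.34 and 0.191, 0 and 0.0797 in nESC, and at most 0.345 in EpiLC. Gssos2, antisense to the glutathione synthetase gene, had 2.06, 3.45 and 2.51 and 0, 0.325 and 0.656, and at most 0.143 in EpiLC. These 3 were chromatin RNAs of nESC, with differences of -3.09, -2.13 and -1.72.

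Dnah2os and Slc36a3os were cytoplasmic in nESC. Dnah2os had 0.298, 0.0946 and 0.0826 FPKM in nESC chromatin and 3.22, 2.70 and 3.41 in cytoplasm, and at most 0.243 in EpiLC. Slc36a3os had 0, 0.212 and 0 and 3.77, 3.75 and 2.49, and at most 0.535 in EpiLC. Their differences were 2.59 and 2.47.

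Nr6a1os, Rab11fip4os1 and Lrp8os1 were chromatin RNAs of EpiLC. Nr6a1os, antisense to the gene of a nuclear receptor that represses pluripotency genes, had 5.21, 1.94 and 1.80 FPKM in EpiLC chromatin and 0.172, 0 and 0.248 in cytoplasm, and at most 0.727 in nESC. Rab11fip4os1 had 2.04, 2.89 and 1.93 and 0.180, 0.108 and 0.155, and at most 0.404 in nESC. Lrp8os1 had 1.57, 2.71 and 0.746 in chromatin and was listed at 0 in EpiLC cytoplasm, with at most 0.143 in nESC. Their differences were 1.63, 1.67 and 1.75.

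**Figure D4:**
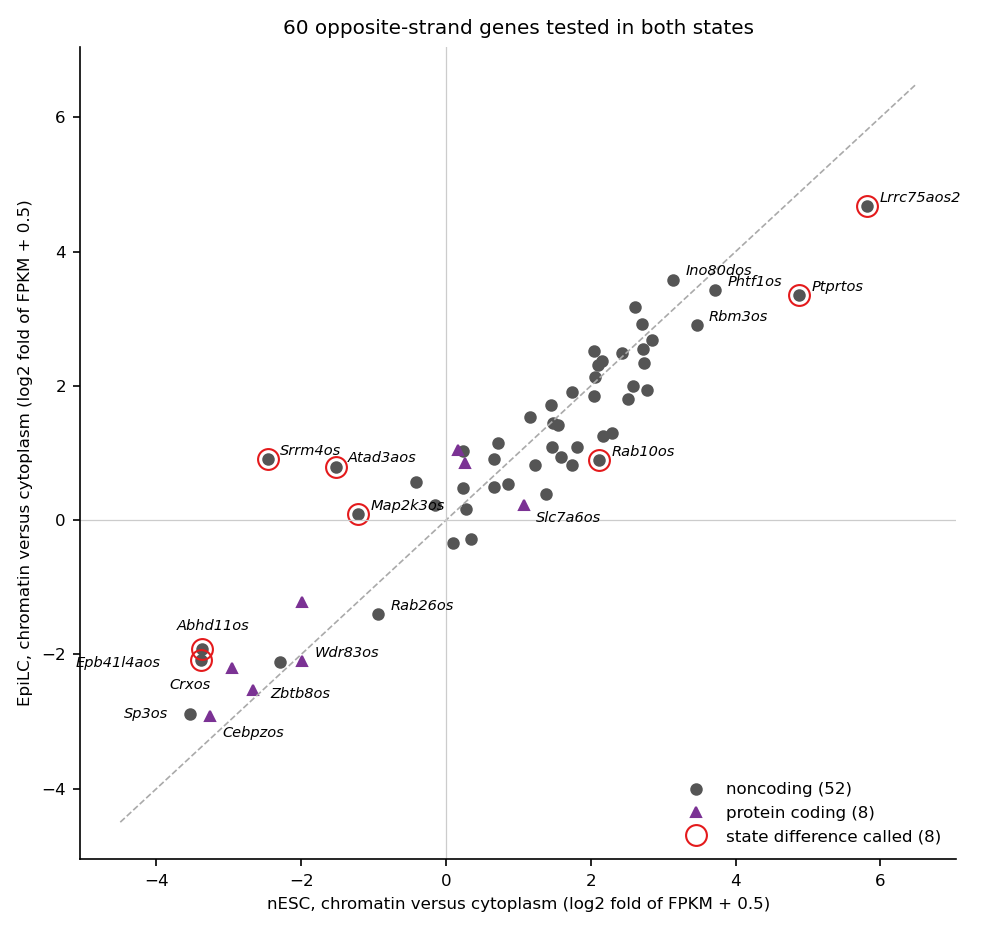
Chromatin versus cytoplasm log2 fold of FPKM + 0.5 in nESC (x axis) and EpiLC (y axis) for the 60 opposite-strand genes tested in both states, coding genes as triangles. Rings mark the 8 of them whose state difference was called, and the dashed line marks equal folds; Srrm4os and Atad3aos lie left of 0 in nESC and above 0 in EpiLC.

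Levels in total RNA of the states are set side by side with no test, since the 2 tables were normalized separately. Of 59 members reaching 1 FPKM in either state, 13 had a level 2-fold or more higher in nESC and 8 in EpiLC, on log2(FPKM + 0.5). Among 77 sense partners at that level 14 and 16 were, and among 13227 genes 1710 and 2407. Crxos stood at 294 ± 4.92 FPKM (SD, n = 3) in naive cells and at 2.94 ± 0.135 in EpiLC. Notumos, antisense to the gene of a Wnt-inactivating enzyme, had 9.98 ± 0.616 and 0.187 ± 0.0232, Srrm4os 8.44 ± 1.66 and 0.579 ± 0.0731, and Vax2os, head to head with an eye homeobox gene, 5.41 ± 0.617 and 0.239 ± 0.0821. Adap2os, Gssos1, Gssos2, Myadml2os, Ptprtos, Dnah2os, Kank4os, Cebpzos and Rab26os were also higher in nESC. Rab26os had 250 ± 32.2 and 118 ± 13.9 FPKM in total RNA, but its fractions did not all follow. Its cytoplasm was higher in EpiLC, its nucleoplasm was higher in nESC, and its chromatin values overlapped. Its nESC total RNA also lay above every nESC fraction. In EpiLC the higher ones were Pcsk2os1 (0.0128 ± 0.0132 and 1.80 ± 0.185), Lrrc75aos2 (1.33 ± 0.430 and 5.47 ± 0.473), Arhgap27os2, Dhrs13os, Prox2os, Junos, Dnmt3bos and Trp73os.

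Over 53 pairs with at least 1 FPKM in a state for both, the log2 differences of member and partner had a Pearson's r of 0.77 and a Spearman's rho of 0.72, as a description of pairs that share libraries and, where strand was not used, reads. Of 17 such members past 2-fold, 8 were higher in nESC together with a partner past 2-fold and 6 in EpiLC with theirs. None went against its partner by that much. Crxos, Ptprtos, Dnah2os and Myadml2os, also past 2-fold, are outside these pairs because their partners stayed below 1 FPKM in both states. Neither the correlation nor these counts cover members with such a partner. Notumos was at -3.93 (log2, EpiLC minus nESC) and Notum, a Wnt target, at -5.37. Vax2os was at -3 and Vax2 at -2.96, and Gssos1 and Gssos2 at -1.70 and -1.63 beside Gss at -3.74. Junos was at 1.26 beside the AP-1 gene Jun at 4.08, and Dnmt3bos at 1.25 beside the de novo DNA methyltransferase gene Dnmt3b at 5.10. Cebpzos was at -1.36 with Cebpz at -0.61, Lrrc75aos2 at 1.70 with Lrrc75a at 0.78 and Dhrs13os at 1.36 with Dhrs13 at 0.42. Among the 17 members, these 3 had a partner that stayed within 2-fold.

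**Figure D5:**
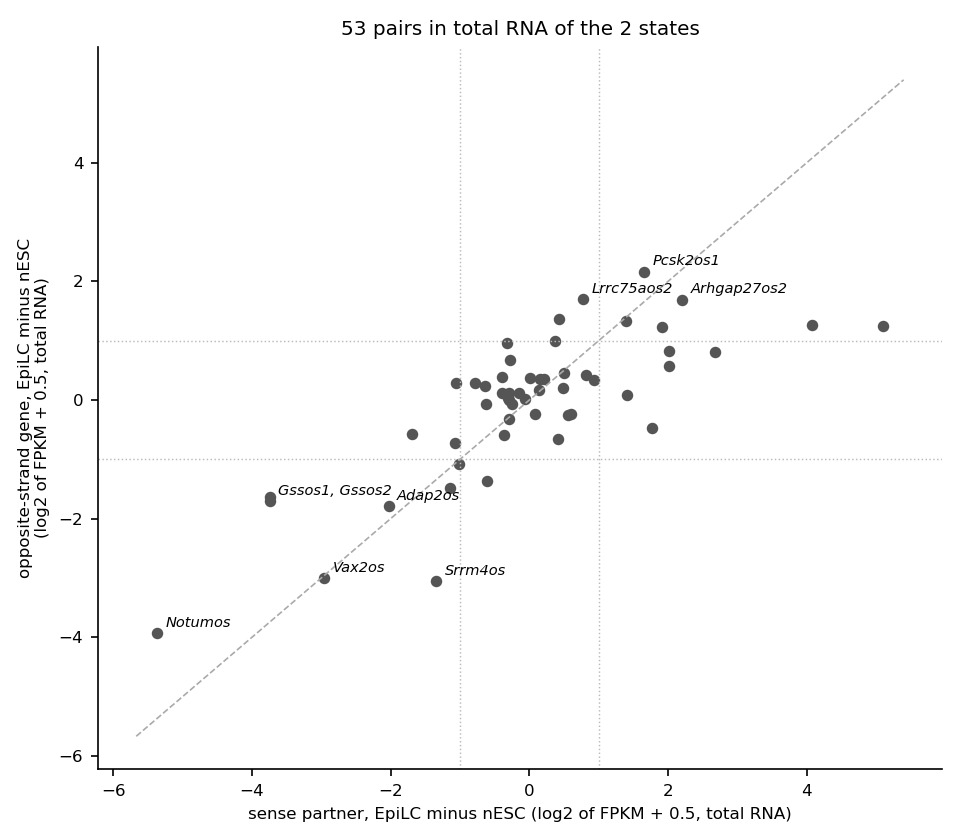
Difference of total RNA between the states (log2 of FPKM + 0.5, EpiLC minus nESC) of opposite-strand genes (y axis) against their sense partners (x axis), 53 pairs, with dotted lines at 2-fold and equality dashed. Notumos, Vax2os and Srrm4os lie at the lower left and Pcsk2os1 and Arhgap27os2 at the upper right with their partners.

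For comparison, genes fixed by name as hosts of snoRNAs (Snhg genes and Gas5) gave 6 of 11 higher and 2 lower in nESC chromatin (median 1.48) and 4 of 11 higher and 2 lower in EpiLC (median 0.71). Other names of antisense or overlapping transcripts gave 3 of 6 higher and 2 lower in each state, with Hras among the 6 by its letters only. The nuclear check genes (Malat1, Neat1, Kcnq1ot1 and Meg3) had folds from 3.47 to 4.81 in nESC and 1.78 to 4.40 in EpiLC, all called except Malat1 in nESC (4.81, SE 2.45), and the cytoplasmic ones (Gapdh, Actb, Rplp0 and Eef1a1) from -3.41 to -2.27 and from -3.28 to -1.68.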

How the data were processed

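RNA of total, chromatin, nucleoplasm and cytoplasm samples was measured in 3 libraries per group and state. FPKM values per gene were deposited by the authors as 1 table per state; TopHat2 and Cuffnorm on mm10 (GRCm38) are named, per the submitters' processing notes. Of versions, annotation and strand setting, each is not given in the sources used here. Groups were taken from the labels.

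Symbols, positions, biotypes and exons came from GENCODE M21, promoter windows from RefSeq. A stem counted as partner where a gene of that name lay within 100 kb. Genes whose mean reached 0.5 FPKM in a table's 12 libraries were fitted as log2(FPKM + 0.5) with limma 3.58.1 (R 4.3.3, trend, two-sided), Benjamini-Hochberg adjusted over all genes, and called at an adjusted p under 0.05 and at least 2-fold. Folds on this scale understate changes of low genes. Ratios used an exact permutation test (Python 3.11.15, SciPy 1.17.1). The fit was tested on simulated data. Genes were named as members by the rule above, with full values for the most abundant, the largest folds and all state differences called. Members and lists were chosen with earlier results of these data known. Alternatives were pseudocount, filter, scaling, trend, replicate block and leaving out libraries; choosing members on total RNA was added after seeing the data.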

Additional observations from a re-analysis of the deposited data

Results flagged for a closer look

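For 19 members the chromatin to cytoplasm fold differed between the states by a test of the difference itself (limma, adjusted p under 0.05 and at least 2-fold). For 8 of them, Dnah2os, Slc36a3os, Lrp8os1, Rab11fip4os1, Nr6a1os, Mkln1os, Myadml2os and Gssos2, 1 state held between 4.1 and 44.4 fragments over 6 libraries. The pseudocount holds that state's fold near 0, so the test is no evidence of a changed distribution there. For Slain1os the ratio of fragments ran against the fitted difference. The log2 difference, EpiLC minus nESC, was 3.451 for Srrm4os, 2.586 for Dnah2os, 2.472 for Slc36a3os and 2.392 for Atad3aos. It was 1.747 for Lrp8os1, 1.670 for Rab11fip4os1, 1.632 for Nr6a1os, 1.521 for Abhd11os and 1.386 for Map2k3os. It was 1.378 for Dtnbos, 1.369 for Epb41l4aos, 1.346 for Slain1os and 1.104 for Trp73os. Lower in EpiLC were Mkln1os at -3.086, Myadml2os at -2.132, Gssos2 at -1.716, Ptprtos at -1.455, Rab10os at -1.146 and Lrrc75aos2 at -1.064. Of the 19 calls, 12 were kept under every alternative in which the gene was tested. The other 7 were Gssos2, Lrrc75aos2, Nr6a1os, Ptprtos, Rab10os, Slain1os and Trp73os. With a pseudocount of 0.1, Gssos2 had -2.25 (adjusted p = 0.0774), Nr6a1os 1.69 (adjusted p = 0.149) and Slain1os 1.23 (adjusted p = 0.0899).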

How the results depend on the processing

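Scaling each library to one FPKM sum left 6 members lower in nESC chromatin than in cytoplasm and 2 in EpiLC. It left 2 lower in EpiLC chromatin than in nucleoplasm. Lower among all genes were 773 of 14022, 667 of 14387 and 504 of 14387, in the same order. For nucleoplasm against cytoplasm the same scaling gave 18 members higher and 0 lower in nESC and 6 and 1 in EpiLC. All genes then had 6415 of 14022 higher and 135 lower in nESC, and 5298 of 14387 and 223 in EpiLC. Chromatin to cytoplasm folds that changed sign were, in EpiLC, Appbp2os 1.45, Ccpg1os 0.40, Pcsk2os1 1.28, Frs3os 1.31, Junos 1.09 and Rab26os 0.44, and in nESC Map2k3os 0.54, Lrp8os2 1.26, Vax2os 1.25, Stamos 1.09 and Rab26os 1.03. Nucleoplasm to cytoplasm folds that did so in nESC were Map2k3os 0.0198, Cebpzos 0.15, Abhd11os 0.15, Appbp2os 1.06 and Epb41l4aos 0.0373. The cause was not tested. Centring on the median gave 18 members lower in nESC nucleoplasm and 20 in EpiLC. A pseudocount of 0.1 gave 9 higher and 20 lower there in nESC and 6 and 27 in EpiLC, and one of 1 gave 1 higher in EpiLC. A mean of at least 1 FPKM, with fewer genes tested, left 28 members higher in EpiLC chromatin than in cytoplasm and 32 than in nucleoplasm.

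Leaving out 1 library at a time gave 41 to 42 members higher in nESC chromatin than in cytoplasm and 44 to 47 in EpiLC. The median ratio difference of member and partner ran from 0.42 to 0.85 in nESC and from 0.83 to 0.98 in EpiLC, where pseudocounts of 0.1 and 1 gave 1.15 and 0.71. Samples of the same replicate number were also correlated, though not on their FPKM levels as such. These correlations ran from -0.095 to 0.135 in nESC and from -0.19 to 0.164 in EpiLC. In each state 1 of 18 exceeded 0.1. They cannot show whether equal numbers mark a shared culture, which the labels do not give. With the replicate number as a block 8491 genes were called between nESC chromatin and cytoplasm, 8112 in EpiLC and 1726 between the states, and member counts were 41 and 14, 45 and 10, and 13 and 6. Chromatin to cytoplasm calls were kept under every alternative in which the gene was tested by 42 of 55 members in nESC and 37 of 55 in EpiLC. For chromatin against nucleoplasm 40 of 48 and 49 of 58 were kept, and for nucleoplasm against cytoplasm 3 of 15 and 2 of 16. Depth limits values below 1 FPKM.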
